A study of Homo sapiens with 6 samples.

Results

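The enzymes described here make asparagine and proline or move amino groups between amino acids. They are 8 genes, ASNS, PYCR1, ALDH18A1, GPT2, GOT1, GOT2, BCAT1 and BCAT2, found by symbol among the 57820 annotated genes of the deposited table, each on a single row. The libraries came from U2OS cells, an established human osteosarcoma line, treated for 4 h with 5 µM NMS-873 (3 libraries) or for 4 h with 0.05% DMSO (3 libraries), both in the same medium with serum and L-glutamine. NMS-873, which was dissolved in DMSO (its final DMSO share is not given), blocks VCP allosterically; VCP is an ATPase that extracts ubiquitylated proteins for degradation, and the comparison asks how transcripts responded to its inhibitor. Polyadenylated RNA was sequenced with single reads, and each library held between 21132311 and 22488952 reads in annotated genes.

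Asparagine synthetase (ASNS) transfers the amide nitrogen of glutamine to aspartate. Proline is built from glutamate by ALDH18A1, which makes pyrroline-5-carboxylate in mitochondria, and by PYCR1, which reduces it to proline there. Transaminases pass an amino group between an amino acid and a keto acid: GPT2 makes or uses alanine in mitochondria, GOT1 (cytosol) and GOT2 (mitochondria) exchange aspartate and glutamate and form part of the malate-aspartate shuttle, and BCAT1 (cytosol) and BCAT2 (mitochondria) start the breakdown of leucine, isoleucine and valine. ASNS is a classic target of ATF4, the transcription factor that is translated when the kinases of the integrated stress response phosphorylate eIF2 alpha. ATF4 and its partners of the C/EBP family bind a composite site, the C/EBP-ATF response element.

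The sequences 5′ of the start site of 5 of the 8 genes are given first, because the promoters hold short motifs of stress-activated factors and of E-box factors such as MYC. They are the 250 bases before the start in RefSeq's GRCh38.p14 annotation, on the strand of the gene, 5′ to 3′, all of them on the minus strand of the genome: ASNS at chr7:97872409-97872658, GOT1 at chr10:99430625-99430874, BCAT1 at chr12:24949102-24949351, GOT2 at chr16:58734317-58734566 and ALDH18A1 at chr10:95656712-95656961. Capitals mark matches, on either strand, to TGATGNAA (the core of the C/EBP-ATF response element), CACGTG (the E-box) or TGACGTGG (the core of the unfolded protein response element), and no pair of matches shared a base.
ASNS: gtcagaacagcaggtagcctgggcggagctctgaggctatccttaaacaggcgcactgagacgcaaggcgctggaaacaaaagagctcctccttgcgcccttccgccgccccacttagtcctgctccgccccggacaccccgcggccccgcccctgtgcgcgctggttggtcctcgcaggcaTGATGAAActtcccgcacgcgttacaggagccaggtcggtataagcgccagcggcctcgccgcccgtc
GOT1: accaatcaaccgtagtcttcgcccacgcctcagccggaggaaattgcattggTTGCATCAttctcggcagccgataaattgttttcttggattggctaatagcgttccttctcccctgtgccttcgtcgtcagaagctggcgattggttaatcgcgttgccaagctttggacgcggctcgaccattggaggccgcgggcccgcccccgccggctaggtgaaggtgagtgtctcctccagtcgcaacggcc
BCAT1: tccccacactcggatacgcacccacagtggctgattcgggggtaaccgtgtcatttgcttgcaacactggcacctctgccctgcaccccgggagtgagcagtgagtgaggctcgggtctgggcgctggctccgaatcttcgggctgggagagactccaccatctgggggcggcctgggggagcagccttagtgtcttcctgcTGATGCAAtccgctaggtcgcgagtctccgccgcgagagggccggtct
GOT2: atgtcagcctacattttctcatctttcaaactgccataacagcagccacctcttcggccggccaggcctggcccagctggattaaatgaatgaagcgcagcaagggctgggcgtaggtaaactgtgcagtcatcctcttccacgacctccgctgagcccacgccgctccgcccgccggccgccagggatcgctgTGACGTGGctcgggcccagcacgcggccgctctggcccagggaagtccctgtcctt
ALDH18A1: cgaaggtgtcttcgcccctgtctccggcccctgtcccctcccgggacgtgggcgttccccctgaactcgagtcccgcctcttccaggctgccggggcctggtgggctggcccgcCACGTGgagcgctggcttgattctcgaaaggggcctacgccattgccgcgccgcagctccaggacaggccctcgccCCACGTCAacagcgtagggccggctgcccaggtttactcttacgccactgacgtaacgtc

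The response element core TGATGNAA was found in these windows of ASNS, GOT1 and BCAT1, starting at position -68, -198 and -48 from the start site, with the sequences TGATGAAA, TTGCATCA (the reverse strand of the motif) and TGATGCAA. The ASNS match lies in a stretch known from earlier work as a nutrient-sensing response element of this promoter. Among all 35116 RefSeq windows of 300 bases (250 before and 50 after the start), 3.62% held TGATGNAA, 7.26% held CACGTG and 0.729% held TGACGTGG. The 8 genes had 10 such windows from 5 genes, 5 of them alternative starts of BCAT1 and 2 of them starts of ASNS. Of the 10, 3 held TGATGNAA, 2 held CACGTG and 2 held TGACGTGG. The ASNS windows share bases, as do some of BCAT1, so the windows are not independent, and an excess over all windows was not tested. For ASNS and BCAT1 the start shown is the one whose window held a match. The windows of their other starts held none of the 3 motifs. CACGTG stood in the ALDH18A1 window at -136 and in the BCAT1 window at 15 bases after the start, outside the part shown, and TGACGTGG in the GOT2 window at -56 and in the ALDH18A1 window at -60. PYCR1, GPT2 and BCAT2 were not matched to a window. A match is a string of letters and was not tested as a binding site.

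With NMS-873, ASNS rose 2.41-fold, GOT1 2.01-fold, GPT2 1.88-fold, BCAT1 1.28-fold and PYCR1 1.11-fold, while BCAT2 fell by 0.21 and GOT2 by 0.15 on the log2 scale. ALDH18A1 did not pass the test. Thus 5 of the 8 enzymes were higher and 2 lower at an adjusted p under 0.05, from limma on log2(normalised count + 1) with Benjamini-Hochberg adjustment over 14889 genes; of all those genes 14.9% were higher and 33.0% were lower. At least 2-fold higher were 2 of the 8, ASNS and GOT1, against 1.64% of all genes tested, and at least 2-fold lower were 0 of the 8, against 2.21%. GOT1 was just past that fold and stood below it, at log2 fold changes of 0.99 and 0.98, without NMS-873 replicate 2 or DMSO replicate 2. The median log2 fold change of the 8 was 0.26, beside -0.10 for all genes tested. All 8 passed the filter on low values, a mean of at least 10 normalised counts (reads divided by the library's size factor) over the 6 libraries.

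**Figure D1:**
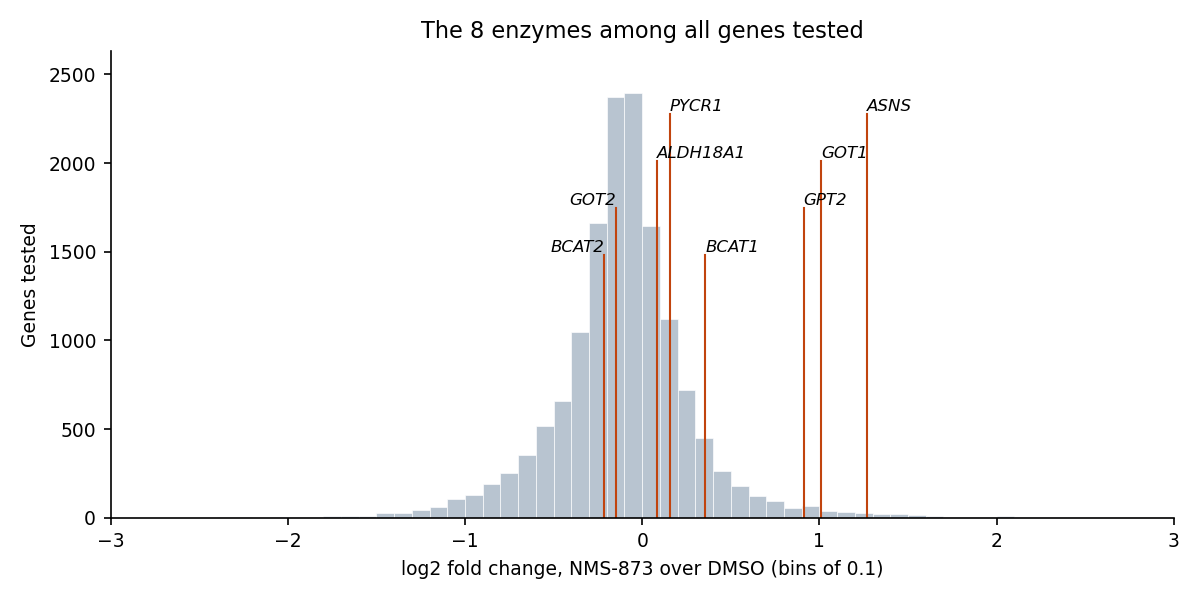
Log2 fold change of all 14889 genes tested, NMS-873 over DMSO, in bins of 0.1 between -3 and 3 (bars, number of genes; 2 genes below and 15 above are not drawn), with the 8 enzymes marked by vertical lines whose heights carry no value. ASNS, GOT1 and GPT2 stand in the far right tail, and GOT2 and BCAT2 lie in the body of the distribution.

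The libraries were set beside chosen markers of cell types, which test neither the identity of the line nor the treatment labels. The summed level of 6 osteoblast genes was 582.8 to 615 FPKM (reads per kilobase and size factor) with NMS-873 and 667 to 679 FPKM with DMSO, of which SPARC and COL1A1 were high, while SP7 and BGLAP, which mark the osteoblast lineage and mature osteoblasts, were under 1 FPKM in every library. COL1A1 was at 156.8 to 179.8 FPKM with NMS-873 and 217.1 to 232.8 FPKM with DMSO, while the ranges of SPARC overlapped. RUNX2, a transcription factor of the lineage, was at 0.607 to 0.705 FPKM with NMS-873 and 1.197 to 1.33 FPKM with DMSO. The mesenchymal markers VIM and CDH2 summed to 423 to 457.5 FPKM with NMS-873 and 484 to 519.8 FPKM with DMSO, a gap that came from VIM (364.7 to 399 FPKM with NMS-873, 427 to 463 FPKM with DMSO). The 5 measured markers of leukocytes, epithelium and hepatocytes summed to 1.45 to 1.85 FPKM with NMS-873 and 1.53 to 1.94 FPKM with DMSO, with CD3E and ALB at 0 and only EPCAM above 1 FPKM; these ranges overlapped. The part of the osteoblast and mesenchymal genes in the results below was not tested. NMS-873 replicate 1 stood apart from NMS-873 replicates 2 and 3: set against them it gave a chi-square over its degrees of freedom of 7.36 and 7.81, while they gave 1.79 against each other. To a lesser degree DMSO replicate 3 stood apart, at 3.56 and 3.63 against DMSO replicates 1 and 2, which gave 1.53 against each other. Without NMS-873 replicate 1, 5 enzymes were again higher and 2 lower, with GOT2 at a limma adjusted p = 0.0498. Without DMSO replicate 3, 5 enzymes were higher and 0 lower. The deposited values are scaled to ERCC spike-in RNA. On this scale a change in cell number and one in RNA per cell cannot be told apart. Spike-in reads were 0.367 to 0.382% of reads with NMS-873 and 0.359 to 0.386% with DMSO, and these ranges overlapped. Scaled to equal totals of reads in genes, without the spike-ins, the median log2 fold change of all genes tested was -0.099, beside -0.10 as deposited. The labels do not state whether each library had its own culture, and the p-values rest on a spread between libraries that may be technical only.

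ASNS (ENSG00000070669.12; chromosome 7, 97481430 to 97501854, minus strand, hg19) was at 77.0, 74.0 and 76.0 FPKM in NMS-873 replicates 1 to 3, against 30.9, 31.1 and 32.1 FPKM in DMSO replicates 1 to 3. The lowest NMS-873 library was far above the highest DMSO library, and within a treatment the libraries lay within a few FPKM of each other. The mean was 75.7 ± 1.49 FPKM with NMS-873 and 31.4 ± 0.632 FPKM with DMSO (SD, n = 3 each). The log2 fold change was 1.27 with a standard error of 0.0537 (limma adjusted p = 6.29e-64), which is 2.41-fold with a 95% interval of 2.24 to 2.60. It was larger than that of 98.99% of the genes tested and ranked 150 from the top. The level of ASNS rested on 2925 to 7474 reads per library.

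ASNSP1, a pseudogene of ASNS on chromosome 8 (47490835 to 47526145), was at 1.80, 1.93 and 1.52 FPKM in the NMS-873 libraries and 0.573, 0.843 and 1.03 FPKM in the DMSO libraries. It was 2.16-fold higher (limma adjusted p = 2.47e-08), with 69.2 ± 8.37 normalised counts with NMS-873 and 32.2 ± 9.08 with DMSO (SD, n = 3 each). Of the 3107 stretches of 50 bases in the GENCODE transcripts of ASNSP1, 43 (1.38%) also occur in transcripts of ASNS. Reads from the shared stretches cannot be assigned to either gene. How they were counted is not given, so the ASNSP1 row is uncertain. ASNS itself had 7367 ± 144.9 normalised counts with NMS-873 and 3054 ± 61.5 with DMSO. No other row overlapping or named after ASNS, PYCR1, GOT2 or BCAT1 reached a mean of 2 normalised counts. MYADML2 overlaps PYCR1 by 2768 bases on the same strand. How reads lying in both rows were counted is not given, so the level of PYCR1 and its ratio to ALDH18A1 carry that uncertainty.

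In proline synthesis the changes were small. ALDH18A1 (ENSG00000059573.4; chromosome 10, 97365696 to 97416463, minus strand), the first enzyme of the branch, was at 48.2, 49.5 and 50.4 FPKM with NMS-873 and 47.8, 44.3 and 47.7 FPKM with DMSO. All NMS-873 values lay above all DMSO values, by a margin of less than 1 FPKM. The log2 fold change was 0.08 with a standard error of 0.0537 (limma adjusted p = 0.187), and the 95% interval of the ratio of NMS-873 to DMSO was 0.985 to 1.14.

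PYCR1 (ENSG00000183010.12; chromosome 17, 79890260 to 79900288, minus strand), which catalyses the last step to proline, had the highest level of the 8 enzymes in both treatments. Its values were 94.99, 96.1 and 100.3 FPKM with NMS-873, against 85.7, 84.4 and 91.6 FPKM with DMSO, and the groups did not overlap. The mean was 97.1 ± 2.82 FPKM with NMS-873 and 87.2 ± 3.82 FPKM with DMSO (SD, n = 3 each), a 1.11-fold rise (log2 fold change 0.16, 95% interval 0.05 to 0.26, limma adjusted p = 0.0119). The call was lost without NMS-873 replicate 3, DMSO replicate 1 or DMSO replicate 2 (limma adjusted p = 0.0707, 0.0814 and 0.0727).

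Of the other genes of proline and ornithine metabolism 3 were tested, of which 0 were higher and 1 was lower, with a median log2 fold change of -0.023; of all genes tested 14.9% were higher and 33.0% lower. PYCR3, the cytosolic form, fell by 0.23 on the log2 scale to 8.76 ± 0.270 FPKM with NMS-873, against 10.25 ± 0.450 FPKM with DMSO (limma adjusted p = 0.00217). OAT, which links ornithine to the same intermediate, was at 27.4 ± 1.66 FPKM with NMS-873 and 26.2 ± 1.22 FPKM with DMSO (log2 fold change 0.064, limma adjusted p = 0.343, called higher with gene-based factors at 0.16), and ALDH4A1, which oxidises that intermediate to glutamate, was at a log2 fold change of -0.02 (limma adjusted p = 0.851). The breakdown enzymes PRODH and PRODH2 were below the filter, and PRODH2 had no reads.

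GPT2 (ENSG00000166123.9; chromosome 16, 46918290 to 46965209, plus strand), the mitochondrial alanine transaminase, was at 20.9, 22.5 and 21.9 FPKM with NMS-873, against 11.4, 11.4 and 11.9 FPKM with DMSO. The groups were widely separated, and the libraries within each were close together. The mean was 21.8 ± 0.801 FPKM with NMS-873 and 11.6 ± 0.303 FPKM with DMSO (SD, n = 3 each), a 1.88-fold rise with a 95% interval of 1.75 to 2.03 (log2 fold change 0.91, standard error 0.0546, limma adjusted p = 7.61e-41). GPT, the cytosolic alanine transaminase, was below the filter, at 0.0999, 0.13 and 0.0515 FPKM with NMS-873 and 0.154, 0.126 and 0.247 FPKM with DMSO. GPT2 therefore carried nearly all alanine transaminase transcript per length in both treatments.

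GOT1 and GOT2, the cytosolic and mitochondrial aspartate transaminases, were called in opposite directions on the spike-in scale, with equal totals and after quantile normalisation. With gene-based scaling only the rise of GOT1 was called. GOT1 (ENSG00000120053.9; chromosome 10, 101156627 to 101190381, minus strand) was at 69.3, 71.9 and 70.2 FPKM with NMS-873, against 35.2, 33.7 and 36.3 FPKM with DMSO. It rose 2.01-fold with a 95% interval of 1.87 to 2.16 (log2 fold change 1.01, standard error 0.0538, limma adjusted p = 9.91e-48), and every NMS-873 library was well above every DMSO library. GOT2 (ENSG00000125166.8; chromosome 16, 58741035 to 58768261, minus strand) was at 55.5, 59.4 and 58.2 FPKM with NMS-873, against 63.5, 61.7 and 66.8 FPKM with DMSO. Its groups did not overlap, and NMS-873 replicate 1 was the lowest library. GOT2 fell by 0.15 on the log2 scale (95% interval -0.26 to -0.04, limma adjusted p = 0.0159), close to the median of all genes tested at -0.10. With gene-based in place of spike-in scaling, GOT2 was at -0.055 (limma adjusted p = 0.174), and its call was also lost without DMSO replicate 1 or DMSO replicate 3 (adjusted p = 0.0559 and 0.0903). With equal totals and after quantile normalisation GOT2 was called lower, at -0.145 and -0.167 (limma adjusted p = 0.00085 and 0.00016).

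The ratio of GOT1 to GOT2 within a library does not depend on how libraries are scaled. It was 1.249, 1.21 and 1.21 in the NMS-873 libraries, against 0.554, 0.547 and 0.543 in the DMSO libraries. GOT2 was thus the more abundant transcript per length in the 3 DMSO libraries, and GOT1 in the 3 NMS-873 libraries. The ratio was 2.23-fold higher with NMS-873 (exact permutation test, two-sided, p = 0.1, the smallest p that 20 assignments of 3 against 3 allow; adjusted p = 0.125 over the 5 pairs computed, of which 4 are given). ASNS set against GOT2 gave a ratio of 1.31 ± 0.0696 with NMS-873 and 0.491 ± 0.0126 with DMSO (SD, n = 3 each; exact permutation p = 0.1).

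BCAT1 and BCAT2, the cytosolic and mitochondrial branched-chain transaminases, were also called in opposite directions on the spike-in scale, with equal totals and after quantile normalisation. With gene-based scaling only the rise of BCAT1 was called. BCAT1 (ENSG00000060982.10; chromosome 12, 24964295 to 25102393, minus strand) was at 21.7, 23.6 and 23.9 FPKM with NMS-873, against 18.8, 17.3 and 17.9 FPKM with DMSO. It rose 1.28-fold with a 95% interval of 1.19 to 1.38 (log2 fold change 0.36, standard error 0.0540, limma adjusted p = 2.81e-09). The groups did not overlap, and NMS-873 replicate 1 was the nearest of its group to the DMSO libraries.

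BCAT2 (ENSG00000105552.10; chromosome 19, 49298319 to 49314286, minus strand) had the lowest level of the 8, at 5.19, 4.75 and 4.92 FPKM with NMS-873 and 5.79, 5.37 and 6.08 FPKM with DMSO. It fell by 0.21 on the log2 scale (95% interval -0.35 to -0.08, limma adjusted p = 0.00718), with 473 to 610 reads per library. Scaled to the genes it was at -0.12 (adjusted p = 0.107), and the call was lost without NMS-873 replicate 2 or DMSO replicate 3 (adjusted p = 0.0557 and 0.0631). With equal totals and after quantile normalisation BCAT2 was called lower, at -0.21 and -0.16 (limma adjusted p = 0.00422 and 0.0257). The ratio of BCAT1 to BCAT2 within a library was 4.18, 4.96 and 4.86 with NMS-873, against 3.25, 3.23 and 2.94 with DMSO, 1.48-fold higher and without overlap (exact permutation p = 0.1, adjusted p = 0.125).

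**Figure D2:**
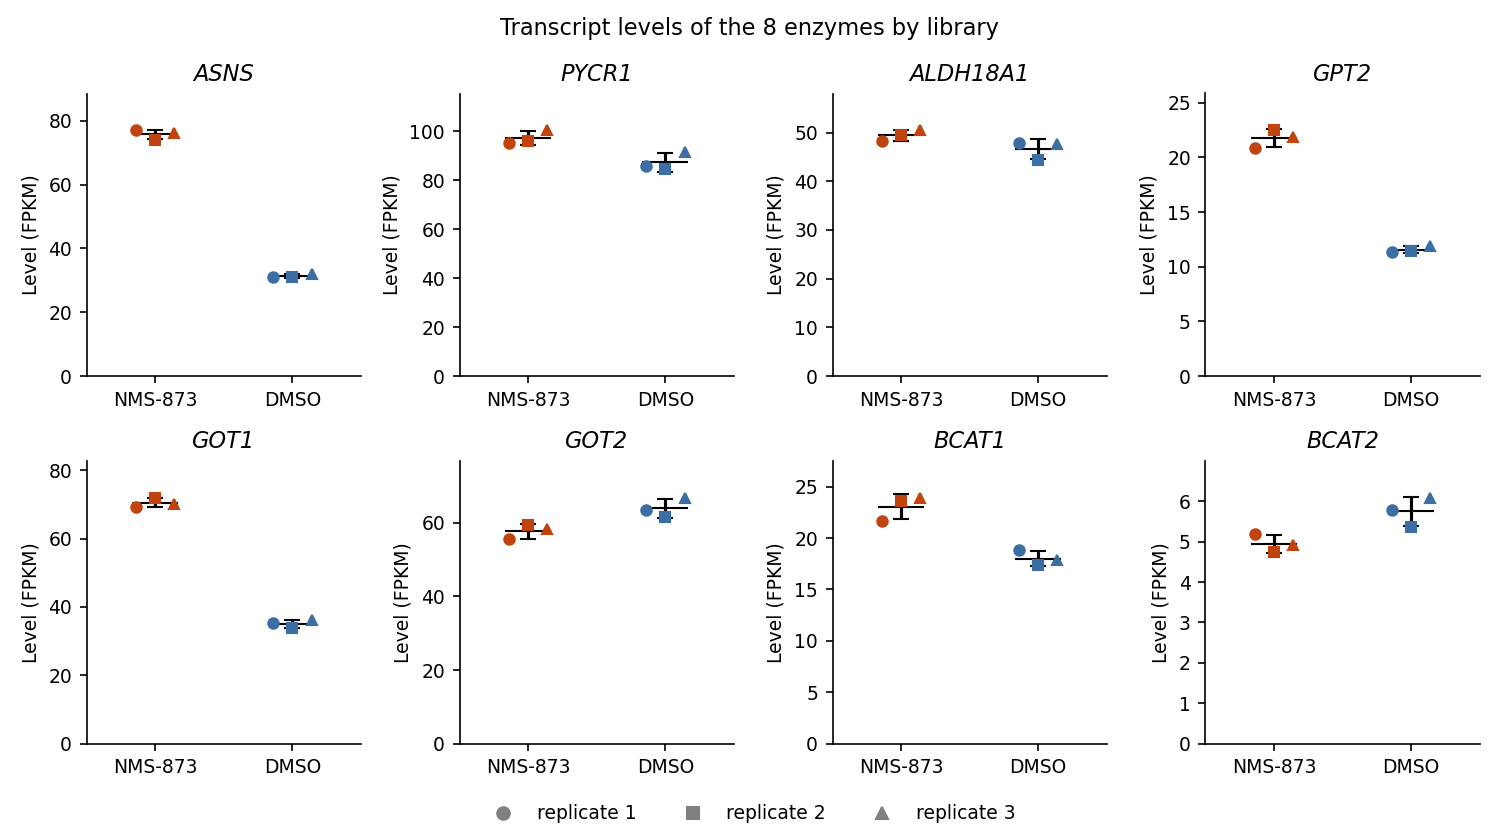
Level of each enzyme in FPKM (vertical axes from 0) in the NMS-873 and DMSO libraries, where points are single libraries, their shapes the replicate numbers, and bars the mean and SD of 3 libraries. ASNS, GOT1 and GPT2 show wide gaps between treatments. In ALDH18A1 the lowest NMS-873 library (48.2 FPKM) and the highest DMSO library (47.8 FPKM) are closer than either SD (1.11 and 2.00 FPKM).

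In none of the 8 enzymes did the values of the treatments overlap: 6 were higher in all NMS-873 libraries and 2 lower, against 16.4% and 37.2% of all genes tested with such a separation in these directions. With NMS-873 the order of levels per length was PYCR1, ASNS, GOT1, GOT2, ALDH18A1, BCAT1, GPT2 and BCAT2, where BCAT1 and GPT2 overlapped in range and all other neighbours did not. With DMSO the order was PYCR1, GOT2, ALDH18A1, GOT1, ASNS, BCAT1, GPT2 and BCAT2, with no overlap between neighbours. ASNS and GOT1 were below GOT2 and ALDH18A1 with DMSO and above them with NMS-873. In the authors' deposited table, 7 of the 8 have an adjusted p below 0.05, the same 7 with the same signs, and ALDH18A1 has 0.182.

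**Figure D3:**
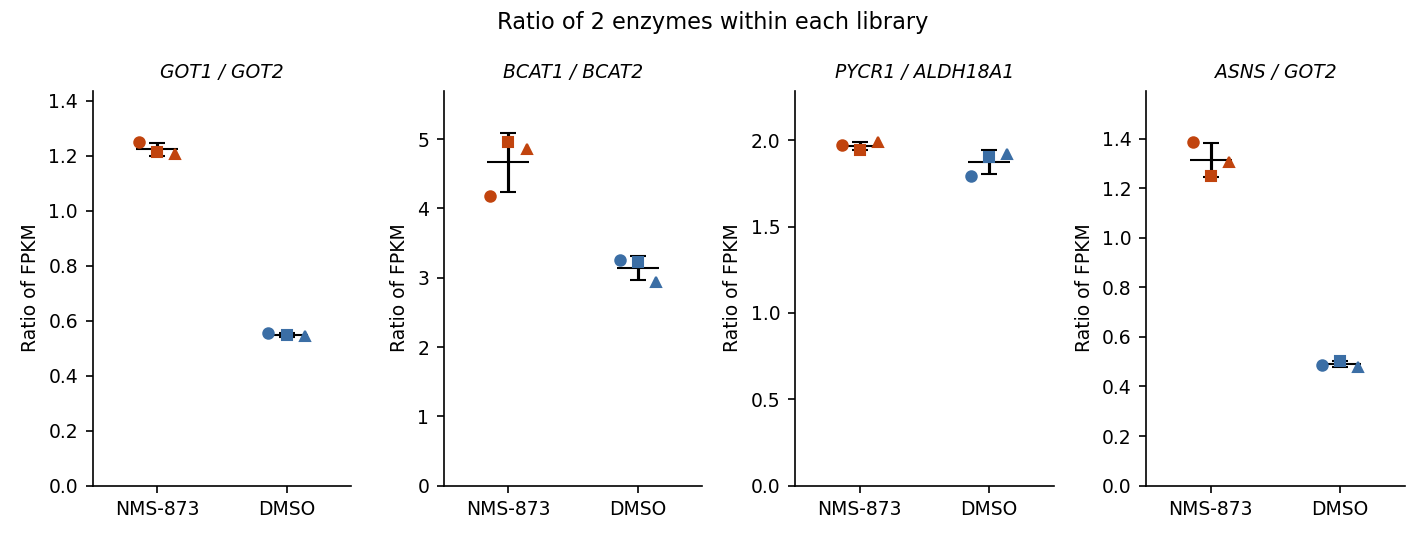
Ratio of the FPKM of 2 enzymes within each library (vertical axes from 0), for NMS-873 and DMSO, with points for libraries, shapes for replicate numbers and bars for the mean and SD of 3 libraries. The ratios of GOT1 to GOT2, BCAT1 to BCAT2 and ASNS to GOT2 were higher with NMS-873, and the ratio of PYCR1 to ALDH18A1 differed by 1.05-fold.

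The ratio of PYCR1 to ALDH18A1 was 1.97 ± 0.0243 with NMS-873 and 1.87 ± 0.0705 with DMSO (SD, n = 3 each; exact permutation p = 0.1, adjusted p = 0.125), a 1.05-fold difference.

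The calls and sizes of the smaller changes moved with the scaling, while no enzyme changed sign under those run. With the libraries scaled to the genes, the median gene moved to -0.01 on the log2 scale, 6 enzymes were higher and 0 lower. ALDH18A1 was then called at a log2 fold change of 0.18 (limma adjusted p = 8.48e-05), and with equal totals at 0.088 (limma adjusted p = 0.0331). ASNS, GOT1, GPT2 and BCAT1 were called higher with the deposited scaling, with gene-based factors, with equal totals and after quantile normalisation, at log2 fold changes of 1.27 to 1.36, 1.00 to 1.102, 0.91 to 1.01 and 0.34 to 0.45. Without NMS-873 replicate 1, ASNS was at 1.26, GOT1 at 1.02, GPT2 at 0.94 and BCAT1 at 0.40.

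**Figure D4:**
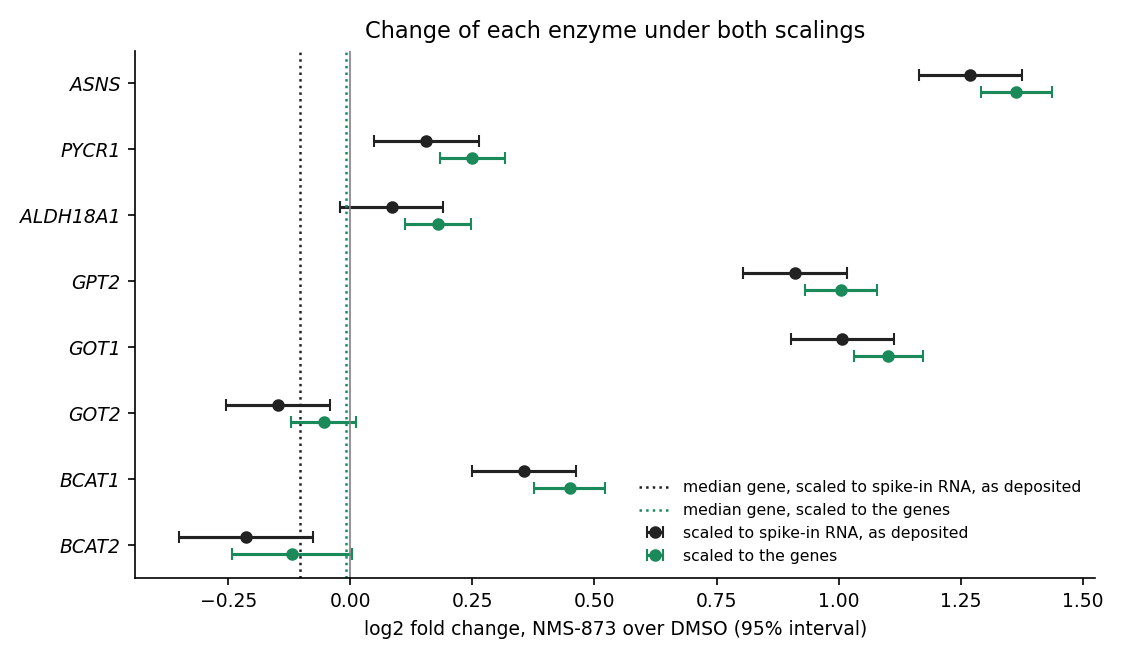
Log2 fold change of each enzyme, NMS-873 over DMSO, with its 95% interval from limma (horizontal bars), for the deposited spike-in scaling (black) and for scaling to the genes (green); dotted lines give the median gene of each. GOT2 was at -0.15 on the spike-in scale and -0.055 on the gene scale, and ASNS stayed above 1 on both.

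Of 50 related genes in 5 lists, 39 were tested, and 4 (10.3%) were higher and 12 (30.8%) lower, beside 14.9% and 33.0% of all genes; the median log2 fold change was -0.052. With gene-based factors 10 were higher and 6 lower, and without NMS-873 replicate 2 or without DMSO replicate 3 only 7 were lower. Of the genes called on the spike-in scale, GLUL, ASRGL1, ACAD8, ECHS1 and ACADSB have an adjusted p above 0.05 in the authors' own comparison. The other called genes are below it there. Among 8 tested genes of asparagine, aspartate, glutamine and glutamate, 3 were higher and 1 lower, with a median of 0.055. ASS1, which joins aspartate to citrulline, rose 1.246-fold to 28.2 ± 1.00 FPKM with NMS-873, against 22.6 ± 1.19 FPKM with DMSO (limma adjusted p = 3.14e-07). GLUL, glutamine synthetase, was low, at 0.381, 0.263 and 0.351 FPKM with NMS-873 and 0.235, 0.188 and 0.251 FPKM with DMSO, 1.46-fold higher (limma adjusted p = 0.00422), and not called without NMS-873 replicate 1 or on log2(FPKM + 0.1). ASNSD1, which resembles ASNS in part of its sequence, was 1.11-fold higher (limma adjusted p = 0.0255), a call lost without NMS-873 replicate 2 or 3 or DMSO replicate 1 or 2. GLUD1, glutamate dehydrogenase, was at 27.0 ± 0.898 FPKM with NMS-873 and 27.4 ± 0.953 FPKM with DMSO (limma adjusted p = 0.791).

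In the malate-aspartate shuttle, to which GOT1 and GOT2 belong, 0 of the other 5 genes were higher and 2 lower, with a median log2 fold change of -0.11, beside -0.10 for all genes tested. With equal totals or without DMSO replicate 2, 3 of the 5 were lower, and after quantile normalisation all 5 were. SLC25A12, a mitochondrial carrier of aspartate and glutamate, fell by 0.48 on the log2 scale to 2.41, 2.72 and 2.60 FPKM with NMS-873, against 3.68, 3.38 and 3.71 FPKM with DMSO (limma adjusted p = 7.08e-08). SLC25A11, the carrier of malate and oxoglutarate, fell by 0.26 (limma adjusted p = 0.00114). Both were also lower with gene-based factors. MDH1 and MDH2, the malate dehydrogenases, were at log2 fold changes of -0.075 and -0.071, with limma adjusted p = 0.252 and 0.283, and SLC25A13, the paralogue of SLC25A12, was at -0.11 (limma adjusted p = 0.103). MDH1 and MDH2 were called lower after quantile normalisation, and SLC25A13 there, with equal totals and without DMSO replicate 2.

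Of 6 other transaminases tested, 1 was higher and 2 lower. PSAT1, the phosphoserine transaminase of serine synthesis, was at 61.6, 65.8 and 67.0 FPKM with NMS-873, against 33.6, 31.9 and 33.4 FPKM with DMSO, a 1.97-fold rise (log2 fold change 0.97, standard error 0.0546, limma adjusted p = 1.04e-44) that lies between those of GPT2 and GOT1. ABAT, the GABA transaminase, fell by 0.34 on the log2 scale (limma adjusted p = 3.80e-05), and AADAT, the aminoadipate transaminase, fell by 0.29 (limma adjusted p = 0.00124). KYAT1 and KYAT3, kynurenine transaminases, were at log2 fold changes of -0.046 and 0.17 (limma adjusted p = 0.673 and 0.0653). The values of KYAT3 did not overlap between treatments, and it was called higher with gene-based factors, equal totals, quantile normalisation or the replicate block, and without NMS-873 replicate 3. GPT, GOT1L1, TAT, AGXT, AGXT2 and ETNPPL were below the filter, and GOT1L1, AGXT and AGXT2 had no reads.

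The enzymes that break down the products of BCAT1 and BCAT2 included 0 higher and 6 lower (35.3%) of 17 tested, beside 14.9% and 33.0% of all genes, and their median was -0.075 on the log2 scale. The number lower was 2 without NMS-873 replicate 2 or without DMSO replicate 3, and 3 without NMS-873 replicate 1, without DMSO replicate 1 or without the variance trend. IVD, which oxidises the leucine-derived intermediate, fell by 0.38 on the log2 scale to 6.31 ± 0.0934 FPKM with NMS-873, against 8.20 ± 0.459 FPKM with DMSO (limma adjusted p = 1.12e-08). ACAD8, of valine breakdown, fell by 0.23 on the log2 scale (limma adjusted p = 0.00903); it was not called with gene-based factors, after quantile normalisation, or without NMS-873 replicate 2 or DMSO replicate 1. With gene-based factors 3 of the 17 were higher and 1, IVD, lower. Subunits and regulators of the keto acid dehydrogenase showed no call on the spike-in scale with all 6 libraries. There BCKDHB, DBT, DLD, BCKDK and PPM1K lay between -0.095 and 0.088 on the log2 scale. Of these, DLD was called higher with gene-based factors (0.18), equal totals (0.092) and quantile normalisation (0.094), and without NMS-873 replicate 1. BCKDHA was below the filter, and its row overlaps other rows on the same strand, TMEM91 among them, so its count is uncertain. Overlaps of the other genes in the lists are not given.

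**Figure D5:**
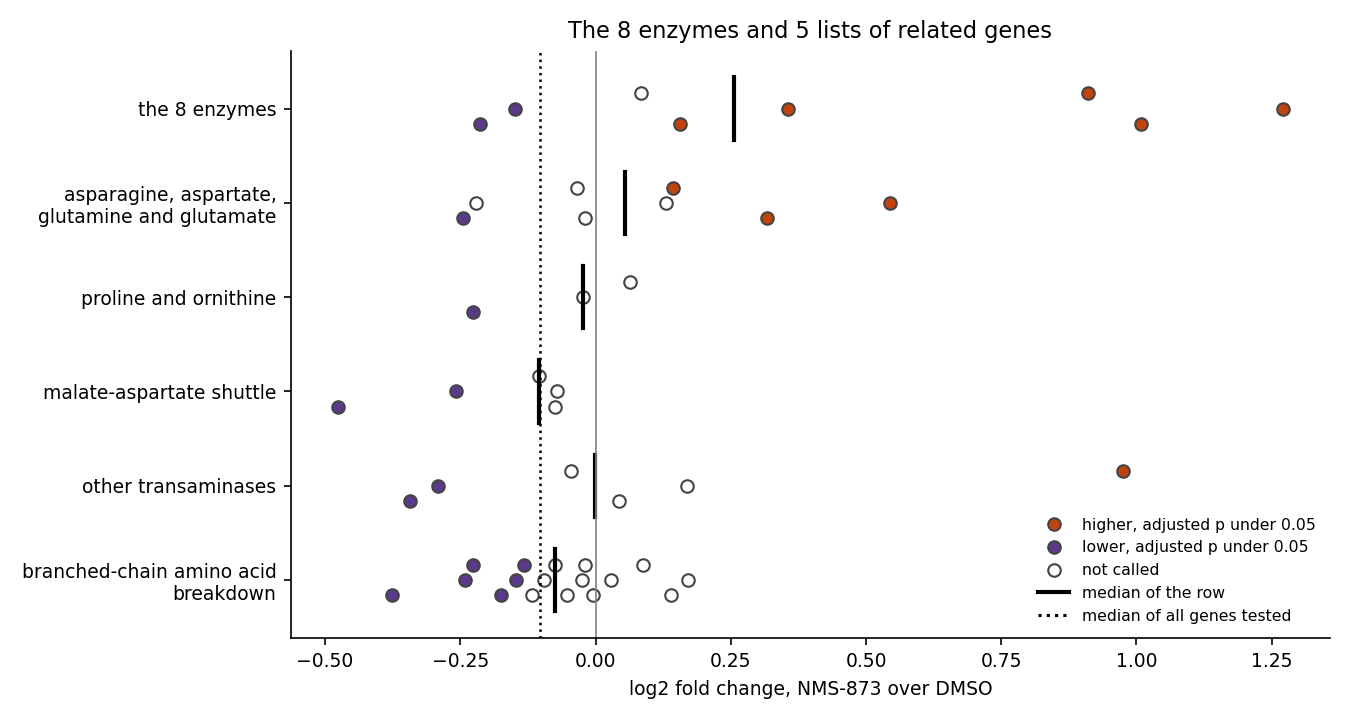
Log2 fold change, NMS-873 over DMSO, of the 8 enzymes and of the tested genes of 5 related lists, 1 point per gene, filled where limma's adjusted p was under 0.05 (orange higher, purple lower), with the median of each row as a bar and that of all genes tested as a dotted line. Apart from the 8 enzymes, only PSAT1 lies above 0.6.

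Over the 6 libraries, the genes whose pattern was nearest to that of ASNS were CREB3L2, SEC24D, MYC, SCD and CBLB, with Euclidean distances of 0.0294, 0.0944, 0.108, 0.121 and 0.128 on the centred log2 scale, among 12078 genes with a mean of at least 50 normalised counts. CREB3L2, a membrane-bound transcription factor of the ER, averaged 10.8 ± 0.206 FPKM with NMS-873 and 4.44 ± 0.0349 FPKM with DMSO (SD, n = 3 each). MYC is a transcription factor, SEC24D a coat protein of vesicles leaving the ER, SCD a fatty acid desaturase and CBLB a ubiquitin ligase. With only 2 treatments this distance is set mainly by the size of the fold change, which was 2.33-fold to 2.55-fold for these 5 genes and 2.41-fold for ASNS.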

How the data were processed

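The submitters deposited 1 table for 6 libraries. Its sample columns were taken as FPKM. Multiplied by the deposited mean normalised count (a signal in reads after scaling) over the mean FPKM, and by a size factor, 100% of the values came within 0.001 of whole reads. Any constant factor per gene would pass this check, so division by gene length was not tested. Comparisons of level between genes rest on it. The size factors equal those of the 92 spike-in rows. The log2 fold changes and adjusted p-values of the authors' own comparison are also deposited. The submitters' processing notes name hg19, featureCounts 1.5.1 and DESeq2 1.16.1, and the aligner and strand setting are not given in the sources used here. The libraries were made with a stranded kit, per the labels. All genes whose mean normalised count reached 10 were tested on log2(normalised count + 1) by limma (version 3.58.1, R 4.3.3), with an intensity trend, treatment as the only term and two-sided p-values adjusted over all 14889 genes; this scale understates changes of low genes. The prior variance had 250.8 degrees of freedom, so the spread came mostly from genes of similar level. The code was tested on simulated data. Since reads carry no molecular identifiers, counting error understates the true error.

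The members, lists, motifs and tests were chosen with earlier results of these data known. Named are the 8 enzymes, tested genes of the lists, rows sharing a locus or name with an enzyme, and the 5 genes nearest to ASNS. Alternatives changed the scaling, the filter, the pseudocount, the variance trend, the test (limma-voom on rebuilt reads), a replicate block and the libraries used. Some genes of the lists, and 1 of the ratios, are not reported here. One marker, PECAM1, was not matched to a row. All spike-in rows were left out of the tests. No replicates agreed within sampling noise.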

Additional observations from a re-analysis of the deposited data

How the results depend on the processing

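Of the 8 enzymes, ASNS, GOT1, GPT2 and BCAT1 kept their direction and their call under every alternative run; no enzyme changed sign under any of them. With gene-based factors, ALDH18A1 was called (0.18), GOT2 (-0.055) and BCAT2 (-0.12) were not, so that 0 enzymes were lower; among all genes 3608 were higher and 3273 lower, against 2217 and 4910 with the deposited scaling, and among the related genes 10 were higher and 6 lower, against 4 and 12. With equal totals ALDH18A1 was called (0.088). After quantile normalisation 9 related genes were higher. Without the variance trend, PYCR1 (0.16) and GOT2 (-0.15) lost their calls at unchanged size, and 1 enzyme was lower; the cause of these changes was not tested. Leaving out each library in turn gave 4 to 5 enzymes higher and 0 to 2 lower, 3 to 4 related genes higher and 7 to 11 lower, and log2 fold changes of 0.13 to 0.19 for PYCR1, -0.18 to -0.12 for GOT2, -0.26 to -0.17 for BCAT2 and 0.048 to 0.10 for ALDH18A1. The enzymes lower numbered 0 without DMSO replicate 3 and 1 without NMS-873 replicate 2 or DMSO replicate 1. With a replicate block 5 enzymes were higher and 2 lower, and 2352 genes were higher and 5255 lower. Deviations of same-numbered libraries correlated at 0.0394, -0.0254 and 0.0425, and those of differently numbered libraries at -0.072 to 0.035. Such correlations over 3 libraries a treatment cannot settle whether the libraries were paired. With 3 libraries a treatment, the exact permutation tests of ratios could not pass 0.05 at any size of effect.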
